A study of Homo sapiens with 2 samples.

Results

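Central carbon metabolism was followed in H322c cells, an established NSCLC cell line, through the transcripts of 50 genes, of 19775 named on the array. They were chosen by name, with earlier results of these data known. Of them, 21 belong to glycolysis and its control, 6 to the pentose phosphate pathway, and 23 feed, control or form the TCA cycle. Cells had been kept for 4 days with 1 µM gefitinib, an inhibitor of the EGFR tyrosine kinase, or for as long with 0.1% DMSO, the vehicle. Each condition was hybridized to 1 Affymetrix U133 Plus 2.0 array, so without replicates nothing could be tested, and each difference describes these 2 arrays only. The arrays carry 114 probe sets (groups of short oligonucleotides) annotated with 1 of these genes alone, of 54675 in all, and 49 of the 50 genes have at least 1. No probe set was assigned to FH, the fumarase gene, which is not analysed here.

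The values were MAS5 signals on a linear scale. Signals under 100 were set to 100 on both arrays, and a gene counted as measured if any of its probe sets came to the floor or above on either array. This kept 94 probe sets of 47 members, against 11223 measured genes on the whole array. A member's value is that of its brightest probe set, judged by the average log2 signal of both arrays, and ratios are gefitinib over DMSO. All 47 measured members reached the floor on both arrays at that probe set, so none of their folds is a bound. The members below the floor were ENO2, the neuronal enolase, with signals of 2.8 with DMSO and 1.6 with gefitinib, and FBP1, which reverses the phosphofructokinase step in gluconeogenesis, with 31.3 and 2.6. In place of a replicate error, the disagreement among probe sets of a gene was used. Its SD, in log2 ratio, came to 0.56 over the 27 members with more than 1 probe set that reached 100 on each array and 0.54 over all 4610 such genes, and it leaves out variation from culture to culture. RNA from a whole culture also leaves fewer cells of a kind and less RNA per cell impossible to tell apart.

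The cells carried epithelial markers on both arrays. All 6 epithelial genes examined (EPCAM, CDH1, KRT7, KRT8, KRT18 and KRT19) were measured, with summed signals of 137861 with DMSO and 115815 with gefitinib. They went both ways: KRT18 (38923.3 and 22787.6) and KRT8 (30370.8 and 18382.6) were lower, and the other 4 were slightly higher, such as EPCAM (14038.1 and 15823.9). None of the 4 leukocyte genes with a probe set reached the floor, their summed signals being 69.2 and 118.4. Of 6 fibroblast genes, COL1A1 alone was measured (420.8 and 950.2), of 4 endothelial genes VWF (30.0 and 496.0) and PECAM1, and of 2 red cell genes HBB, at 110.7 and 57.8. The part of these transcripts in the results below was not tested.

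Glycolysis splits glucose into pyruvate and yields ATP and, through lactate dehydrogenase, lactate. The pentose phosphate pathway branches off at its top and supplies NADPH and the ribose of nucleotides. In mitochondria, pyruvate dehydrogenase turns pyruvate into acetyl-CoA, which the TCA cycle oxidizes, and a family of kinases shuts that gate by phosphorylation. Growth factor signaling through EGFR, ERK, AKT and MYC is known to raise glucose uptake and glycolytic gene expression in tumour cells.

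Most of the glycolytic members were lower on the gefitinib array, by modest ratios that recurred along the pathway. Of 19 measured genes, 15 had a log2 ratio below 0, which 43.0% of all measured genes had. At least 1.5-fold lower were 8 of them, against 14.9% of all measured genes, and at least 2-fold lower were 2, HK2 and ALDOC, against 6.20%. None was at least 2-fold higher, against 13.3%. The median log2 ratio of the 19 was -0.51, and that of all measured genes 0.12.

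**Figure D1:**
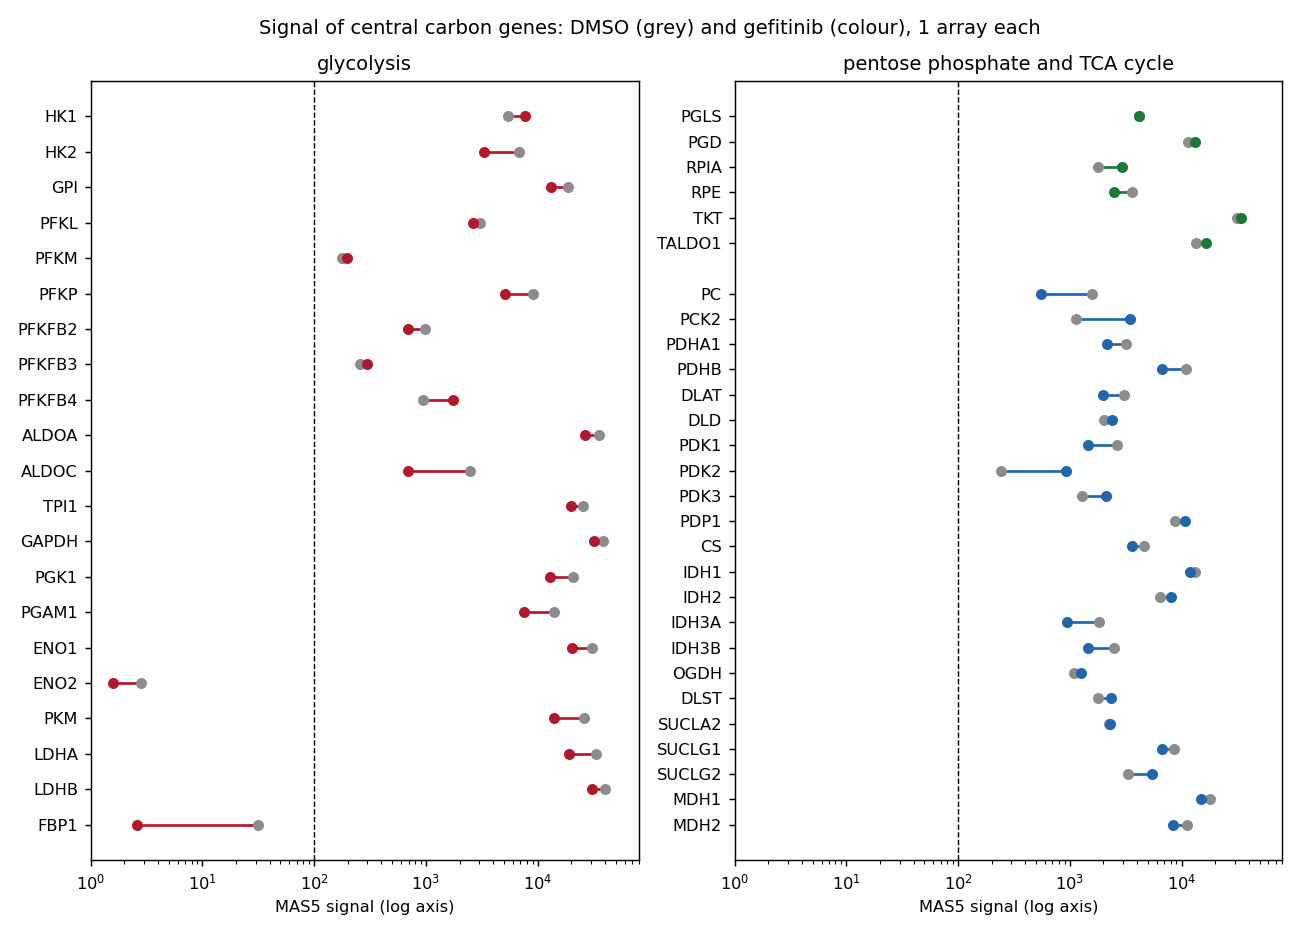
MAS5 signal (horizontal log axis) of each member with a probe set, in pathway order, on the DMSO array (grey points) and the gefitinib array (coloured points, red for glycolysis, green for the pentose phosphate pathway, blue for the TCA cycle), 1 array per condition; a dashed line stands at the floor, 100. In glycolysis the coloured point lies to the left of the grey one for 15 of the 19 measured genes, and ENO2 and FBP1 lie under the floor.

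The hexokinases, which trap glucose in the cell as glucose phosphate, differed in direction. HK2, the isoform characteristic of insulin-responsive tissue and many tumours, had signals of 6791.1 (DMSO) and 3304.0 (gefitinib), 2.06-fold lower (log2 ratio -1.04). HK1, the widely expressed isoform, had 5432.2 and 7661.0, 1.41-fold higher (log2 ratio 0.50). The log2 ratio of HK2 lay 1.54 below that of HK1, a difference that a scaling of the whole array leaves untouched and that stayed between -1.58 and -1.52 over all settings tried. Each value rests on 1 measured probe set, and that of HK2 came to within 2-fold (log2 ratio as high as -0.91) with quantile normalization, centring on control probe sets or lowess correction.

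GPI, which turns glucose phosphate into fructose phosphate, had 18788.9 (DMSO) and 13160.7 (gefitinib), 1.43-fold lower. Of the phosphofructokinases, which commit sugar to glycolysis, the platelet isoform PFKP had signals of 9146.2 and 5132.6, 1.78-fold lower. The liver isoform PFKL (log2 ratio -0.19, and 0.06 at its second probe set) and the muscle isoform PFKM (0.13) stood closer to equality. The PFKFB genes encode bifunctional enzymes that make and remove the sugar bisphosphate which activates phosphofructokinase. PFKFB4 had 939.2 and 1765.8, 1.88-fold higher, and it was the only measured glycolytic gene at least 1.5-fold higher as deposited. PFKFB3 had a log2 ratio of 0.21. PFKFB2 had -0.52 at its brightest probe set and values up to -0.02 at its others. These regulators therefore showed no common direction.

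The aldolases, which cut the product of phosphofructokinase into triose phosphates, were both lower, but unequally. ALDOC, the brain-type isoform, had signals of 2463.7 (DMSO) and 685.8 (gefitinib), 3.59-fold lower (log2 ratio -1.84), the lowest ratio of the 47 members and number 141 from the bottom among the 11223 measured genes. It stayed past 2-fold under each of the 12 settings, between -2.03 and -1.72. It rests on its only probe set, so settings that choose among probe sets could not change it. ALDOA, the muscle-type isoform found in most dividing cells, had 35130.7 and 26495.5, 1.33-fold lower, with -0.54 and -0.20 in log2 ratio at its other probe sets. All 3 ALDOA probe sets end in _x_at, a suffix for probes that can also bind other transcripts.

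Below the aldolases, the 6 measured genes of the triose segment of the pathway, from TPI1 to PKM, were all lower, with log2 ratios from -0.89 to -0.27, and 4 of them passed 1.5-fold. PKM, the pyruvate kinase of proliferating cells and muscle, had 26024.0 (DMSO) and 14057.1 (gefitinib), 1.85-fold lower. PGAM1, a phosphoglycerate mutase, had 13882.4 and 7543.0, 1.84-fold lower. PGK1, the first step of this segment that makes ATP, had 20790.7 and 12796.6 at its brightest probe set, 1.62-fold lower. Its other 3 measured probe sets gave larger ratios, with log2 values of -1.04, -1.24 and -1.25, so that with the mean over probe sets (-1.06) PGK1 was past 2-fold. PKM, PGAM1, PGK1 and ENO1 were lower at each of their measured probe sets. ENO1, the common enolase, had 30441.7 and 20195.4, 1.51-fold lower, with -0.77 and -0.75 at its other probe sets. TPI1, the triose phosphate isomerase, had a log2 ratio of -0.35 at its brightest probe set and 0.32 at its dimmest, 210050_at, whose signals were 123.8 and 154.6.

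GAPDH, often used to normalize expression, was kept as a member and not used for scaling. As deposited, its 6 probe sets were each lower on the gefitinib array, with log2 ratios from -0.35 to -0.18. The control probe sets placed at the 5' end, the middle and the 3' end of its transcript gave -0.27, -0.23 and -0.18. The DMSO signal at the 5' probe set was 38379.9 and the gefitinib signal 31912.9, 1.20-fold lower, and over the 12 settings the log2 ratio of GAPDH ran from -0.46 to -0.01.

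Lactate dehydrogenase, a tetramer that interconverts pyruvate and lactate, draws its subunits from LDHA and LDHB. LDHA had signals of 33045.7 (DMSO) and 19240.0 (gefitinib), 1.72-fold lower. LDHB had 39811.0 and 30614.4, 1.30-fold lower, and its second probe set gave a similar log2 ratio of -0.36. The log2 ratios of the subunits (LDHA minus LDHB) differed by -0.40, whose size is less than the SD of 0.77 expected for a difference of 2 genes from the spread between probe sets. That SD reflects disagreement among probe sets of the same gene, not how far any 2 genes lie apart.

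**Figure D2:**
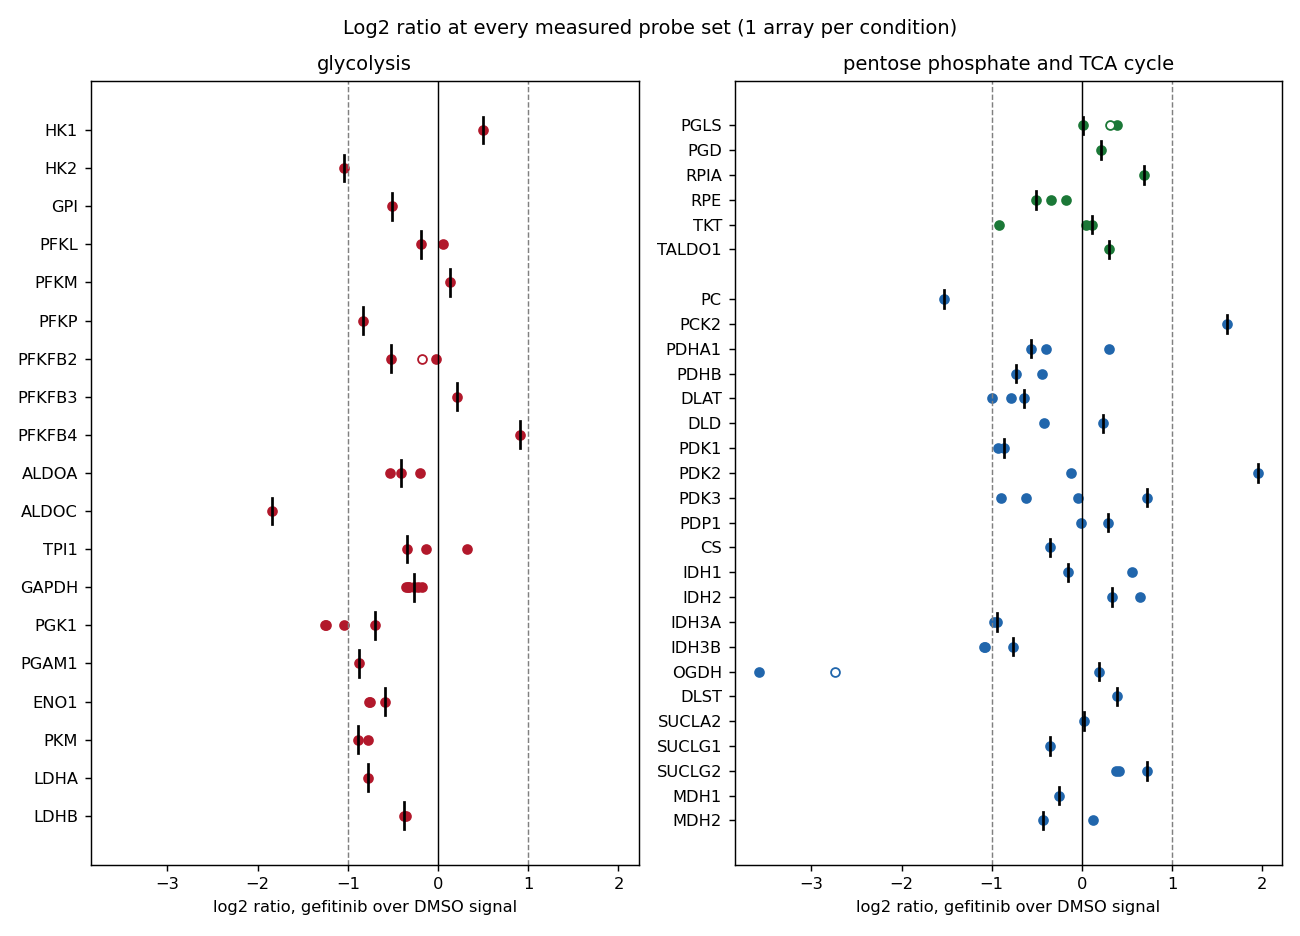
Log2 of gefitinib signal over DMSO signal (horizontal axis) at every measured probe set of the 47 measured members, in pathway order, 1 array per condition; black bars show the probe set used as the gene's value, open points have 1 signal under the floor, and dashed lines mark 2-fold. The glycolytic points from TPI1 to LDHB lie to the left of 0 with the exception of 1 TPI1 probe set, and OGDH, PDK2 and PDK3 have points on both sides.

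Many glycolytic genes lie among the highest signals of the array, where ratios as a whole ran lower. The median log2 ratio of all genes went from 0.32 in the class with mean signals of 100 to 300, through 0.26, 0.06 and -0.10, to -0.20 among the 474 genes with a mean signal of at least 10000. In that top class, 69.8% of all genes had a log2 ratio below 0 and 13.1% were at least 1.5-fold lower, against 10 of 10 and 5 of 10 glycolytic genes, whose median was -0.55. Set against the median of all genes of its own signal class, 17 of the 19 glycolytic genes were lower, and the median deviation over all 19 was -0.31 in log2 ratio. The exceptions were HK1 and PFKFB4.

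**Figure D3:**
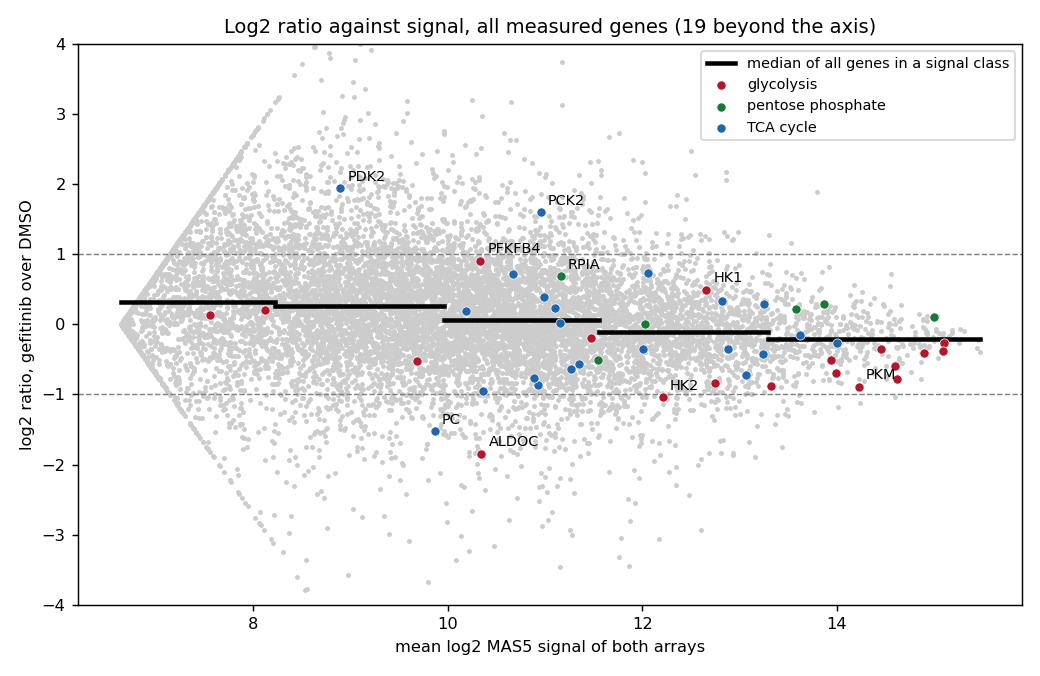
Log2 ratio of gefitinib over DMSO (vertical axis) by the average log2 MAS5 signal over the arrays (horizontal axis) for the 11223 measured genes (grey), with glycolysis in red, the pentose phosphate pathway in green and the TCA cycle in blue, 1 array per condition; dashed lines mark 2-fold and 19 genes lie beyond the axis. Black bars are the median of all genes in 5 classes of mean signal, which steps down from 0.32 to -0.20, and 17 of 19 red points lie under the bar of their class.

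Promoters of members that were lower or higher are shown, with and without a match, so that a shared pentamer can be read beside the ratios. The pentamer ACGTG is 1 form of the core of the hypoxia response element. It also lies within the CACGTG E-box that MYC and its relatives bind, so the matches overlap. The other form of that core, GCGTG, was not searched. RefSeq windows (GRCh38.p14) of 300 bases, from 250 before to 50 after a start site, were searched for ACGTG on both strands, and 47 of the 50 members matched a window. Of 41 windows of 20 glycolytic genes, 16 (39.0%) held it, against 7 of 29 (24.1%) for the TCA cycle, 1 of 6 for the pentose phosphate pathway, 25.4% of the windows of measured genes and 21.4% of all 35116 windows. Of 22 windows of members at least 1.5-fold lower, 10 (45.5%) held it, and of 43 windows of members within 1.5-fold, 11 (25.6%) did, as did 2 of 8 of members at least 1.5-fold higher. Among all measured genes at least 1.5-fold lower the share was 26.6%. Counted by gene, 12 of 20 glycolytic genes had the pentamer in a window (60.0%), against 32.6% of all measured genes. A gene counted if any window matched, and glycolytic genes had more windows each: 41 for 20 genes, against 13566 for 9269 measured genes. The 12 include ENO2, which was not measured. Of the 8 glycolytic genes at least 1.5-fold lower, 5 had it (62.5%), close to the share of the 20. These shares are a description, since windows of a gene can overlap, the groups by ratio differ in pathway, and the motif was chosen with the values known. In the windows of HK2, ALDOC, PGK1, PKM and LDHA, which were lower, and of PCK2 and PDK2, which were at least 2-fold higher, capitals mark each match. Where a gene has several windows, the one with the most matches is printed, or the first listed where they tie, as in HK2.
HK2, chr2:74833877-74834176, + strand: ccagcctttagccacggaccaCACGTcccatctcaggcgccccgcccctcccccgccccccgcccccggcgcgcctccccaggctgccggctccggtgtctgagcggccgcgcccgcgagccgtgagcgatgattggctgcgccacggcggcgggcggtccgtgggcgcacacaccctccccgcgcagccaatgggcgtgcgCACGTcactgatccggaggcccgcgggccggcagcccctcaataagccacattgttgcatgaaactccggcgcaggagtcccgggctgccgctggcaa
ALDOC, chr17:28576846-28577145, - strand: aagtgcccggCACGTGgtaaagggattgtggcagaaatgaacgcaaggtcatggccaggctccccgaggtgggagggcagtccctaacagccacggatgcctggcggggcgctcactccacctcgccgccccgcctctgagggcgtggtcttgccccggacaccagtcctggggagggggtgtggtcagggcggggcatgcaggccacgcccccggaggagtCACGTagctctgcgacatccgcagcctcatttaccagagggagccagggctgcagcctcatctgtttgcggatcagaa
PGK1, chrX:78103998-78104297, + strand: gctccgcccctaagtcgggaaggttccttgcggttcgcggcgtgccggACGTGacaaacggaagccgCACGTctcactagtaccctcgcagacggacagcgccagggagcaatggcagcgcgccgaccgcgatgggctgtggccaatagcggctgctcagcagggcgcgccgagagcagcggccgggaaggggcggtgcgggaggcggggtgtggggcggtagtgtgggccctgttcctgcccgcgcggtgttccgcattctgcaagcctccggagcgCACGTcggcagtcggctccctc
PKM, chr15:72231141-72231440, - strand: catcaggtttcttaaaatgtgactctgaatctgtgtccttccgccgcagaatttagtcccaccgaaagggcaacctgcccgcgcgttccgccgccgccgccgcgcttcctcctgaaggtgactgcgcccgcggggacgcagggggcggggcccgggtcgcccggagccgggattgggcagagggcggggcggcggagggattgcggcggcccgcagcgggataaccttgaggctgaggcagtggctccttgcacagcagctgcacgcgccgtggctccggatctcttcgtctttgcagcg
LDHA, chr11:18394313-18394612, + strand: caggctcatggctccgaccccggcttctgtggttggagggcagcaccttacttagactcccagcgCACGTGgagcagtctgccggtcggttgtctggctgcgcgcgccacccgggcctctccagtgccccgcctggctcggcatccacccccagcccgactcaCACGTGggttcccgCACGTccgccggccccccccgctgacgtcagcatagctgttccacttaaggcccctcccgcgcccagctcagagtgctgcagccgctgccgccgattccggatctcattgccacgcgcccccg
PCK2, chr14:24094061-24094360, + strand: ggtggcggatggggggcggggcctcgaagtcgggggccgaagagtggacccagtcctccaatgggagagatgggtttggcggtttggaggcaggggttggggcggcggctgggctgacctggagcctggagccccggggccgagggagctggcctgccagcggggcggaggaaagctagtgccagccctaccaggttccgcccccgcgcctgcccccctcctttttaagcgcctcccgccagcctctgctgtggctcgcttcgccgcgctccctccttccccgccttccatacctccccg
PDK2, chr17:50095101-50095400, + strand: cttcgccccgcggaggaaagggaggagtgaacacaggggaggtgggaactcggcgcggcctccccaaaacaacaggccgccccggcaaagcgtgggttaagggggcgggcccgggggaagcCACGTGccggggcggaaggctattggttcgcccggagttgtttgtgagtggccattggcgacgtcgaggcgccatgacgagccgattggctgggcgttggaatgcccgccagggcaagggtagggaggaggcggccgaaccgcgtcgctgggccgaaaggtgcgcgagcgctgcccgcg
LDHA and PGK1 each held 3 separate matches, and HK2 and ALDOC 2 each. In the printed HK2 window they began at -229 and -48 from the start site. The other HK2 window, not printed, also held 2 matches and included the full CACGTG. The printed ALDOC and LDHA windows each included the full CACGTG, and the second LDHA window held no match. The PKM and PCK2 windows held none, and PDK2, the member with the highest ratio, had the full CACGTG in 1 of its 3 windows. Among the 8 glycolytic genes at least 1.5-fold lower, PGAM1, ENO1 and PKM lacked the pentamer.

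The pentose phosphate genes stayed within 2-fold. Of the 6 measured, 5 had a log2 ratio above 0, which 57.0% of all measured genes had, and RPIA alone was at least 1.5-fold higher, against 26.4%. Their median was 0.16, close to the 0.12 of all measured genes, and fell below 0 (-0.03) with scaling to spike-ins. Against the median of their signal class, 5 of the 6 were higher, and the median deviation over all 6 was 0.37.

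In the oxidative branch, which yields NADPH, PGD, the phosphogluconate dehydrogenase, had signals of 11337.7 (DMSO) and 13169.5 (gefitinib), 1.16-fold higher. PGLS, which opens the lactone before it, had 4161.6 and 4188.3, a log2 ratio of 0.01, with 0.39 at its second probe set. These differences are smaller than the spread between probe sets of a gene.

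In the non-oxidative branch, RPIA, which isomerizes ribulose phosphate to ribose phosphate, had 1800.7 (DMSO) and 2908.6 (gefitinib), 1.62-fold higher. RPE, the epimerase that draws on the same substrate, had 3575.8 and 2502.7, 1.43-fold lower, and was lower at all 3 of its measured probe sets. The transferases that return pentoses to glycolysis were near equality: TALDO1, the transaldolase, had 13512.2 and 16581.1 (log2 ratio 0.30). TKT, the transketolase, had 31544.5 and 34087.7 (0.11), although its dimmest probe set, 228205_at, gave -0.92.

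Among TCA cycle genes the ratios went both ways. Of 22 measured, 12 had a log2 ratio below 0, which 43.0% of all measured genes had, and the median of the 22 was -0.21. At least 2-fold higher were PDK2 and PCK2, 2 of 22 against 13.3% of all measured genes, and PC was the 1 gene at least 2-fold lower, against 6.20%. At 1.5-fold, 4 of the 22 were higher, against 26.4% of all measured genes, and 6 were lower, against 14.9%. The largest ratios belonged to enzymes around the pyruvate branch point, and no enzyme of the cycle itself passed 2-fold at its brightest probe set.

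The enzymes that make and use oxaloacetate outside the cycle differed in direction. PC, the pyruvate carboxylase that refills the cycle with oxaloacetate, had signals of 1581.9 (DMSO) and 549.5 (gefitinib), 2.88-fold lower (log2 ratio -1.53). PCK2, the mitochondrial enzyme that takes oxaloacetate to phosphoenolpyruvate, had 1138.2 and 3460.9, 3.04-fold higher (log2 ratio 1.60). PC was number 262 from the lowest and PCK2 number 518 from the highest of the 11223 measured genes. Both stayed past 2-fold under all 12 settings. Their difference of -3.13 was 4.09 times the SD that disagreement between probe sets gives for 2 genes. Each gene has 1 probe set, so settings that choose among probe sets could not change either.

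Of the 4 members that form the pyruvate dehydrogenase complex, 3 were lower at their brightest probe sets. PDHB, of the decarboxylating component, had 11061.2 (DMSO) and 6678.6 (gefitinib), 1.66-fold lower. DLAT, the acetyltransferase core, had 3074.7 and 1968.8, 1.56-fold lower, and a second probe set, 211150_s_at, had signals of 1887.0 and 942.5. PDHA1, the partner subunit of PDHB, had 3164.9 and 2139.1, 1.48-fold lower, but its dimmest probe set gave 0.30. DLD, a dehydrogenase that the complex shares with the oxoglutarate dehydrogenase complex, had 2024.9 and 2386.8 (log2 ratio 0.24), and -0.42 at its second probe set. PDHX, which anchors DLD in the complex and is not among the 50 genes, had 5124.3 and 4704.1, near equality at 1.09-fold lower.

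The kinases that inactivate this complex differed from each other. PDK1, a kinase known to be induced by hypoxia, had 2630.0 (DMSO) and 1448.7 (gefitinib), 1.82-fold lower, and its second probe set gave the like log2 ratio of -0.93. PDK2, the most widely expressed of the family, had 242.1 and 933.2 at 202590_s_at, 3.85-fold higher (log2 ratio 1.95). At its other probe set, 213724_s_at, the signals were 278.8 and 256.5 (-0.12), so the mean over its probe sets was 0.91 and fell short of 2-fold. PDK3 had 1274.9 and 2095.2 at its brightest probe set, 1.64-fold higher. Its other 3 measured probe sets were lower, down to a log2 ratio of -0.90, and the mean over all 4 was -0.21. PDP1, the phosphatase that reactivates the complex, had a log2 ratio of 0.29. The direction of PDK1 thus held at both its measured probe sets, whereas those of PDK2 and PDK3 depended on the probe set.

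In the cycle, IDH3A and IDH3B, subunits of the NAD-dependent isocitrate dehydrogenase, were lower. IDH3A had 1820.6 (DMSO) and 945.2 (gefitinib), 1.93-fold lower, and -0.97 in log2 ratio at its second probe set. IDH3B had 2478.5 and 1454.1, 1.70-fold lower, with -1.09 and -1.08 at its others. IDH3G, the remaining subunit of that enzyme and not among the 50 genes, had 3334.2 and 3476.6, a log2 ratio of 0.06. The NADP-dependent IDH2 of mitochondria had 6435.2 and 8109.4, 1.26-fold higher, and was higher at both probe sets. The cytosolic IDH1 had -0.15 at its brightest probe set and 0.55 at its second. IDH3A lay 1.28 below IDH2 in log2 ratio, 1.67 times the SD that disagreement between probe sets gives for 2 genes.

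OGDH, the oxoglutarate dehydrogenase, was the member with the widest disagreement between probe sets. Probe set 201282_at read 1097.1 with DMSO and 1247.3 with gefitinib (log2 ratio 0.19). Probe set 1554151_at read 1295.9 and 108.7 (-3.58), and 1554152_a_at read 668.5 and 84.3, at least 6.68-fold lower. No direction can therefore be given for this gene. Its partner DLST had 1782.9 and 2328.5 (0.39).

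The succinyl-CoA ligase pairs a common subunit, SUCLG1, with SUCLG2 or SUCLA2, which set its use of GDP or ADP. SUCLG2 had 3322.3 (DMSO) and 5495.6 (gefitinib), 1.65-fold higher, and was higher at all 3 measured probe sets. SUCLG1 had a log2 ratio of -0.35 and SUCLA2 of 0.02. The remaining enzymes stayed within 1.5-fold. CS, the citrate synthase that opens the cycle, had a log2 ratio of -0.35, and the malate dehydrogenases MDH1 of the cytosol and MDH2 of mitochondria had -0.26 and -0.43. A second MDH2 probe set gave 0.12.

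**Figure D4:**
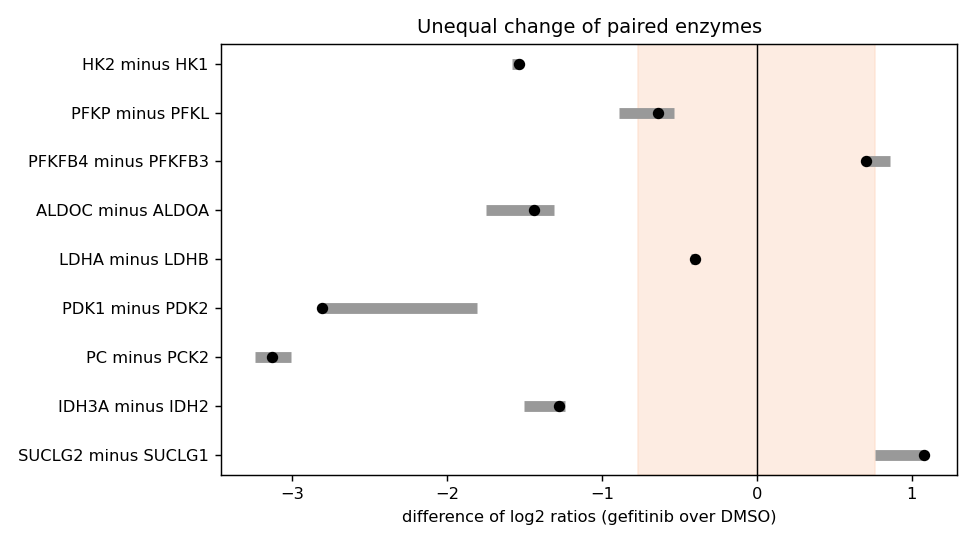
Difference between the log2 ratios (gefitinib over DMSO) of 9 pairs of related enzymes, 1 array per condition; points are the values as deposited, grey bars the range over the 12 settings, and the shaded band is 1 SD (0.77) for a difference of 2 genes, taken from probe sets of the same gene. The differences for HK2 and HK1, ALDOC and ALDOA, PDK1 and PDK2, PC and PCK2, and IDH3A and IDH2 lie outside the band under every setting.

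Related enzymes were set side by side in pairs that were chosen with the values known. Of the 9 pairs, 6 differed by more than 0.77 in log2 ratio as deposited, and the difference of SUCLG2 and SUCLG1 (1.08) fell to 0.76 at the lowest setting. The widest were PC with PCK2 (8.75-fold) and PDK1 with PDK2 (7.00-fold), the second of which shrank to -0.74 in log2 at the probe sets that lie closest. ALDOC lay 1.44 in log2 ratio from ALDOA (-1.44), and PFKP lay 0.64 from PFKL (-0.64), within the band. Over the settings the PFKP and PFKL difference reached -0.89 and that of PFKFB4 and PFKFB3, 0.70 as deposited, reached 0.86, both outside it.

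Enzymes of the same pathways, or beside them, outside the 50 genes numbered 51, of which 29 were measured, with a median log2 ratio of -0.02. Taken apart, the 9 listed with glycolysis were ADPGK, BPGM, ENO3, G6PC3, MINPP1, PGM1, PGM2, PGM2L1 and TIGAR. Above 0 were 6 of them, against 57.0% of all measured genes, and below 0 were 3, against 43.0%. Their median was 0.12, equal to that of all measured genes. That median is the value of ENO3, an enolase with signals of 84.2 (DMSO, set to the floor) and 108.8 (gefitinib). None of the 9 had a mean signal of at least 10000, which 10 of the 19 glycolytic members had. The lower ratios of the glycolytic members were thus not seen in this list. Its genes are unlike them in signal, and most do not catalyse a step of glycolysis itself. The 6 of the pentose phosphate pathway had a median of 0.24 and the 14 of the TCA cycle -0.25. Of the 29, 1 was at least 2-fold higher, against 13.3% of all measured genes, and 1 at least 2-fold lower, against 6.20%. PDPR, a regulatory subunit of pyruvate dehydrogenase phosphatase, had 427.2 (DMSO) and 1323.6 (gefitinib), 3.10-fold higher, with a log2 ratio of 1.70 at its second probe set. PGM2, which converts ribose and hexose phosphates, had 3319.2 and 1635.5, 2.03-fold lower, and was past 2-fold at all 3 probe sets.

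**Figure D5:**
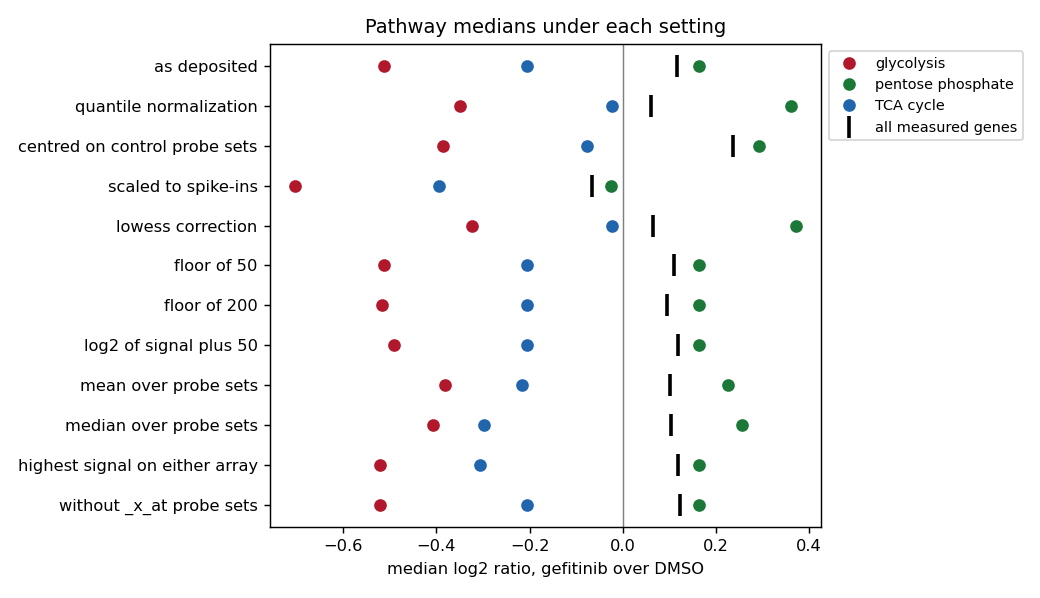
Median log2 of gefitinib signal over DMSO signal (horizontal axis) of the glycolytic (red), pentose phosphate (green) and TCA cycle (blue) genes and of all measured genes (black bars) under the 12 settings. The glycolytic median lies between -0.70 and -0.32 and to the left of both other pathways under each setting, and the pentose phosphate median lies between -0.03 and 0.37.

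The order of the medians was the same under each of the 12 settings: glycolysis lowest, the TCA cycle next and the pentose phosphate pathway highest. The glycolytic median stayed below that of all measured genes by 0.39 to 0.64 (-0.64 to -0.39 as differences). Of the 5 members past 2-fold as deposited, ALDOC, PC and PCK2 remained so under all settings, PDK2 under 10 and HK2 under 9. These counts do not rank the genes. ALDOC, PC, PCK2 and HK2 have 1 measured probe set each, so settings that choose among probe sets could not change them. PDK2 has 2 and fell short only with their mean or median.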

How the data were processed

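Affymetrix U133 Plus 2.0 arrays were hybridized with 1 RNA sample per condition. The authors deposited MAS5 signal intensities on a linear scale. MAS5 is named in the submitters' processing notes, without a version. It subtracts background, corrects for mismatch probes and multiplies each array by a factor; the 2% trimmed mean was 500 on both arrays, so a shift of most transcripts would be hidden. The platform annotation gave 41097 probe sets 1 gene, 1801 several and 11777 none. Symbols were updated through GRCh38.p14 gene identifiers (41043 matched).

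A floor of 100, log2 ratios, the brightest probe set per gene and thresholds of 2-fold and 1.5-fold were applied. No test was made. The number of arrays limits the precision. Alternatives were quantile normalization, centring on 100 control probe sets, scaling to 18 spike-in probe sets, lowess correction (span 0.3), floors of 50 and 200, log2 of signal plus 50, the mean or median over probe sets, the probe set highest on either array, omission of _x_at probe sets, and thresholds of 1.5-fold and 3-fold. GAPDH scaling was not used. The functions were tested on simulated data. All members are named, and of the other enzymes those past 2-fold. Also named, chosen after their values were seen, are IDH3G, PDHX and the 9 measured enzymes listed with glycolysis, ENO3 among them. The members and lists were chosen with earlier results of these data known. Software was Python 3.11.15 with statsmodels 0.14.6, pandas 2.3.3, numpy 2.4.6, scipy 1.17.1, and matplotlib 3.10.9 for plots.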

Additional observations from a re-analysis of the deposited data

How the results depend on the processing

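Of 514 values of single members under an alternative, 507 moved by less than the spread between probe sets (SD 0.54) and 7 by more, all of them of PDK2, PDK3 and OGDH when other probe sets were used. Members with 1 measured probe set could not move under settings that choose among probe sets. No member past 2-fold changed direction. No paired analysis was possible because each condition has 1 array. The median of all measured genes, 0.12 as deposited, was 0.24 after control centring and -0.07 after spike-in scaling, of which 17 of 18 were brighter on the gefitinib array.

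A list median counted as moved from the spread between probe sets divided by the root of the number of genes, and a count when it differed by more than 1.5 times. The glycolytic median of -0.51 was -0.35 with quantile normalization, -0.39 centred on control probe sets, -0.70 scaled to spike-ins, -0.32 with lowess correction and -0.38 as the mean over probe sets. The TCA cycle median of -0.21 was -0.02 with quantile normalization, -0.08 centred on control probe sets, -0.39 scaled to spike-ins and -0.02 with lowess correction. The median of the other central carbon enzymes, -0.02, was 0.11 centred on control probe sets and -0.23 scaled to spike-ins. The pentose phosphate median was -0.03 scaled to spike-ins.

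The number of glycolytic genes at least 2-fold lower, 2, was 1 with quantile normalization, control centring or lowess correction, 3 with the mean or median over probe sets and 5 with spike-in scaling, and was 8 at 1.5-fold and 1 at 3-fold. The number higher, 0, was 1 with control centring, where 16.6% of all measured genes were, or at 1.5-fold, where 26.4% were. In the pentose phosphate pathway the number higher, 0, was 1 at 1.5-fold. The number of TCA cycle genes at least 2-fold higher, 2, was 1 with the mean or median over probe sets and 4 at 1.5-fold. The number lower, 1, was 2 with quantile normalization, lowess correction, the mean over probe sets or without _x_at probe sets, 3 with spike-in scaling, the median over probe sets or the highest signal on either array, 6 at 1.5-fold and 0 at 3-fold. The causes of these shifts were not tested. Without _x_at probe sets, ALDOA and LDHB had no value.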
